A study of Homo sapiens with 9 samples.

Results

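The HSP70 family was followed at the mRNA level in H1975 cells, a human lung adenocarcinoma line, that carried different forms of GRP78. The 10 members were matched by gene symbol to the Ensembl identifiers of the count tables (HSPA5, HSPA8, HSPA1A, HSPA1B, HSPA2, HSPA4, HSPA4L, HSPA14, HSPA9 and HSPA13) and make up 10 of the 61544 genes listed. HSPA5 encodes GRP78 itself and is the gene that was transfected, so its level is a check of the design and the other 9 members carry the comparison. RNA-Seq was run on 9 libraries, 3 in each of 3 groups. All 3 groups first received si78, an siRNA against the 3′UTR of HSPA5, for 24 h. A plasmid was then transfected for 48 h: the empty pcDNA3 vector (Vector), FLAG-tagged wild-type GRP78 (F-78(WT)), or FLAG-tagged GRP78 with lysines of its nuclear localization signal replaced by alanine (F-78(NLS Mut)). No library without si78 was analysed here, so every level below is that of cells under knockdown of the endogenous gene. Transfection was transient and in 1 cell line, and the sources used here do not say whether libraries of a group came from separate cultures, so p-values measure the spread between these libraries only.

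HSP70 proteins are ATP-driven chaperones: an ATPase domain opens and closes a substrate-binding domain over short hydrophobic stretches of unfolded protein, J-domain proteins (DNAJ) stimulate the ATPase, and nucleotide exchange factors release the ADP. Each compartment has its own member. HSPA8 (HSC70) is the constitutive cytosolic form, HSPA1A and HSPA1B are the heat-inducible cytosolic forms, HSPA9 (mortalin) works in the mitochondrial matrix, and HSPA5 works in the lumen of the endoplasmic reticulum (ER). Heat shock factors switch on cytosolic members through heat shock elements, arrays of inverted GAA units, whereas ER stress switches on HSPA5 through ER stress response elements.

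Those elements were looked for by letter, on both strands, in RefSeq promoter windows of 300 bases (250 before to 50 after each annotated start, GRCh38.p14). A window was given for 9 of the 10 members (11 windows, 3 of them for HSPA4L), and none was given for HSPA14. The 3-unit heat shock element was searched as GAANNTTCNNGAA, the 2-unit forms as GAANNTTC (head to head) and TTCNNGAA (tail to tail), and the ER stress response element as CCAAT and CCACG separated by 9 bases. Shown here are the matches that set the members apart, with the searched letters in capitals, each 5′ to 3′ on the strand of its gene. The first is the ER stress response element of HSPA5 (chr9:125241387-125241413, minus strand), 66 bases before the start, and the next are the 3-unit heat shock elements of HSPA8, 230 bases (chr11:123062347-123062373, minus strand) and 55 bases (chr11:123062172-123062198, minus strand) before its start, the second of which reads as the motif on the opposite strand.
HSPA5: ttcaCCAATcggcggcctCCACGacgg
HSPA8, distal: cgagcttGAAagTTCcaGAAcgctgcg
HSPA8, proximal: gggccccTTCtgGAAggTTCtaagata

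Of the 35116 windows searched, 0.0769% held the ER stress response element and 0.49% the 3-unit heat shock element. HSPA5 was the 1 member with the former and HSPA8 the 1 member with the latter. Only 2-unit elements were found in 4 other members. They are shown because HSPA1A (chr6:31815427-31815454, plus strand) and HSPA1B (chr6:31827623-31827650, plus strand) carried the same head-to-head unit, 106 and 105 bases before the start, and because HSPA4L (chr4:127782142-127782169, plus strand, 170 bases before the start of its second window) and HSPA9 (chr5:138575388-138575415, minus strand, 4 bases before the start) carried the tail-to-tail unit.
HSPA1A: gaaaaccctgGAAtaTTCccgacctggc
HSPA1B: gaaacccctgGAAtaTTCccgacctggc
HSPA4L: ttccagatctTTCtcGAAcccgcagctt
HSPA9: ggttggaggtTTCcaGAAgcgctgccgc

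Head-to-head units were present in 6.77% of all windows and tail-to-tail units in 7.74%, and both also occur inside the 3-unit elements of HSPA8, which overlap them. No heat shock element of these spellings and no ER stress response element was found in the windows of HSPA2, HSPA4 and HSPA13. A match gives the letters in the window and was not tested as a binding site.

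**Figure D1:**
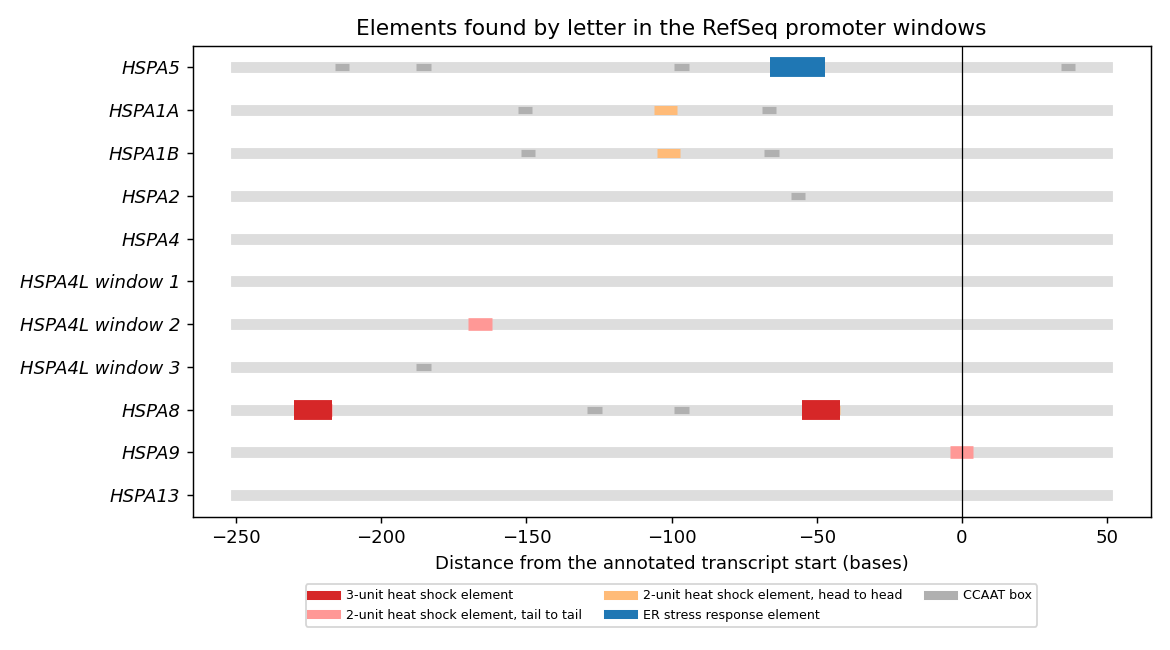
Positions of the searched elements in the 11 promoter windows of 9 HSP70 family members, as distance in bases from the annotated transcript start (vertical line), each grey bar being a window of 300 bases and each coloured block a match on either strand. HSPA8 shows 2 blocks of the 3-unit heat shock element and HSPA5 a single ER stress response element 66 bases before the start, and CCAAT boxes, present in 34.6% of all windows, are drawn in grey.

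The libraries held 17671055 to 27476298 reads counted to genes, and 18653 genes, among them 8 of the 10 members, passed the filter on low counts. The label of an epithelial line was met by the markers: 9 of 9 epithelial genes were above 1 CPM (read counts scaled to the same library size) on average, with summed levels of 4941 to 5666 CPM in Vector, 5248 to 5366 in F-78(WT) and 4799 to 5014 in F-78(NLS Mut). Of the 5 lung lineage markers, 2 were above 1 CPM, with sums of 29.2 to 32.9, 29.9 to 34.2 and 24.2 to 26.6 CPM in the same order, and SFTPB, SFTPC and SFTPA1 were at or below it. Among leukocyte markers 2 of 5 were above 1 CPM and 2 were at 0, and 2 of 4 endothelial and 2 of 5 fibroblast markers were above 1 CPM. The fibroblast list, with DCN, LUM and PDGFRA at or below 1 CPM, summed to 200.4 to 221 CPM in Vector, 213 to 241 in F-78(WT) and 181 to 191 with the NLS Mut form. Sums of the lung lineage and fibroblast lists were thus lower in all F-78(NLS Mut) libraries than in the others, and their part in the results for that form was not tested. Vector replicate 1 stood apart from the other Vector libraries: its log2 level changed with gene GC content by -0.04 per 10 percentage points of GC, against 0.10 and 0.11 in Vector replicates 2 and 3 and -0.08 to 0.03 in the other 6 libraries. Its value lay within the range of the F-78 libraries, whereas Vector replicates 2 and 3 lay above all other libraries. Without Vector replicate 1, a comparison with Vector is thus also one between libraries of unlike dependence on GC content. For calls gained in that way, plasmid and GC content cannot be told apart. Results that rest on Vector replicate 1 are given with and without it.

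HSPA5, the transfected gene, was 15.0-fold above Vector in F-78(WT) and 13.1-fold above it with the NLS Mut form. Its locus lies on chromosome 9 (ENSG00000044574.9, chr9:125234853-125241330, minus strand, GRCh38 with GENCODE 29 models, 8 exons). In the Vector libraries HSPA5 was counted at 359, 383 and 391 CPM (7761 to 10597 reads), in F-78(WT) at 5031, 5814 and 6145 CPM, and in F-78(NLS Mut) at 4962, 5156 and 4765 CPM. All 6 libraries with an F-78 plasmid were above all 3 Vector libraries, while the F-78 groups overlapped, because F-78(WT) replicate 1 fell inside the range of F-78(NLS Mut). On the log2 scale the difference from Vector was 3.91 ± 0.06 (SE, n = 3 libraries a group, adjusted p = 2.2e-28) for F-78(WT) and 3.71 ± 0.06 (adjusted p = 7.1e-28) for F-78(NLS Mut), from edgeR's quasi-likelihood test with Benjamini-Hochberg adjustment over 18653 genes. Reads from HSPA5 took up 0.0365% to 0.0394% of all counts in the Vector libraries and 0.475% to 0.611% in the libraries with F-78.

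The count of a gene cannot tell plasmid transcripts from endogenous ones, so the values above are their sum. None of the 1863 windows of 100 bases in the coding sequence of HSPA5 occurs in a transcript of another member, nor does any of its 1913 windows of 50 bases, so transfected HSPA5 shared no exact stretch of that length with the other 9. Pseudogenes of HSPA5 had more reads in the libraries with F-78. The processed pseudogene HSPA5P1 had 5, 1 and 2 reads in Vector, 72, 102 and 75 in F-78(WT) and 52, 52 and 44 in F-78(NLS Mut), and the mean level of another HSPA5 copy, ENSG00000250746.1, was 0.0244, 2.22 and 1.53 CPM in the same order. These sums are small beside HSPA5 itself, and whether they are misassigned plasmid reads was not tested.

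Between the 2 forms, F-78(WT) libraries averaged 5664 ± 572 CPM (SD, n = 3) and F-78(NLS Mut) libraries 4961 ± 195 CPM. The log2 difference was 0.19 ± 0.05 (SE, 95% interval 0.09 to 0.30, adjusted p = 0.079) and did not pass the threshold of 0.05. It passed with DESeq2 (log2 0.20, adjusted p = 0.045), and in the edgeR test it passed without Vector replicate 1 (0.20, 0.0039), without Vector replicate 3 (0.20, 0.048) and without F-78(WT) replicate 1 (0.28, 0.0025). It also passed with no filter, in the fit of only the 2 groups, and with the replicate block, GC and length correction, or both. It was thus called in 9 of 19 alternative analyses. The interval reaches from 6.15% to 22.8% more HSPA5 mRNA in F-78(WT).

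**Figure D2:**
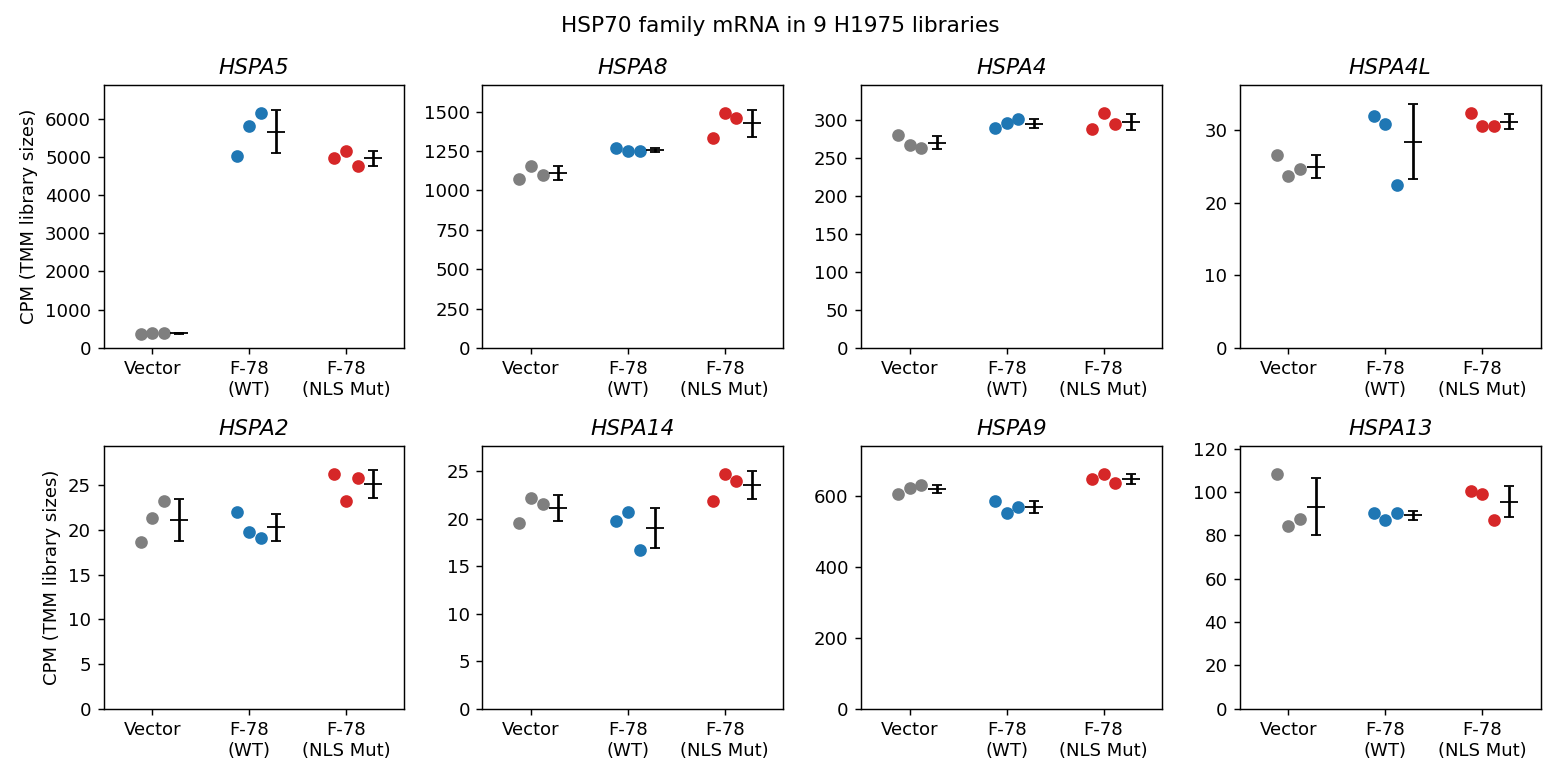
Level in each of the 9 libraries (CPM on TMM library sizes, linear axes from 0) for the 8 counted HSP70 family members, with points for libraries and the black bar for the group mean with its SD (n = 3). HSPA5 sits at 359 to 391 CPM in Vector and at 4765 to 6145 CPM with F-78, and HSPA8 sits at 1073 to 1158 CPM in Vector, 1250 to 1271 in F-78(WT) and 1330 to 1491 in F-78(NLS Mut), with no overlap between the groups.

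HSPA8 was the other member called by edgeR, in F-78(NLS Mut) against Vector. It encodes the constitutive cytosolic chaperone HSC70, which folds new proteins, strips clathrin coats and feeds chaperone-mediated autophagy (ENSG00000109971.14, chr11:123057489-123063230, minus strand), and it is the gene whose window holds the pair of 3-unit heat shock elements shown above. Its level was 1073, 1158 and 1097 CPM in Vector, 1271, 1252 and 1250 CPM in F-78(WT), and 1330, 1491 and 1461 CPM in F-78(NLS Mut). Every F-78(NLS Mut) library was above every F-78(WT) library, and every F-78(WT) library above every Vector library. The log2 difference of F-78(NLS Mut) from Vector was 0.36 ± 0.05 (SE), an increase of 28.7% (95% interval 20.3% to 37.6%), with an adjusted p of 6.4e-05 by edgeR's quasi-likelihood test. By p-value HSPA8 was number 7 among the 18653 genes, and the difference kept its direction and its call in all 19 alternative analyses, with a range of 0.32 to 0.41 on the log2 scale.

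The level of HSPA8 in F-78(WT) lay between those groups. Its difference from Vector was 0.18 ± 0.05 (13.3%, 95% interval 5.96% to 21.3%, adjusted p = 0.074), which did not pass the threshold. DESeq2 placed it below the threshold (adjusted p = 0.012), as did the edgeR test without Vector replicate 1 (log2 0.16, adjusted p = 0.018). It was called in 3 of 19 alternatives, the other being the replicate block, and not with GC and length correction. Set against F-78(NLS Mut) directly, F-78(WT) was at -0.18 ± 0.05 (-11.9%, 95% interval -17.6% to -5.76%, adjusted p = 0.067), again short of the threshold, with DESeq2 at an adjusted p of 0.017 and edgeR without Vector replicate 1 at -0.18 (adjusted p = 0.0055). The test of the forms against each other is the one that bears on whether they differ. Whether it was called depended on the analysis, with a call in 6 of 19 alternatives.

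In F-78(WT) against Vector, 1 of the 8 tested members, HSPA5, was called, where 0.558% of all tested genes were called in either direction (0.214% higher and 0.343% lower). In F-78(NLS Mut) against Vector, HSPA5 and HSPA8 were called, where 0.793% of all tested genes were called (0.295% higher and 0.499% lower). Against each other the forms gave no called member with edgeR, where 0.504% of tested genes were called (0.3% higher and 0.204% lower in F-78(WT)). At an unadjusted p under 0.05 that contrast had 5 members, listed below with their values, and DESeq2 called HSPA5, HSPA8 and HSPA9 in it, among 2.5% of its genes. Against Vector, DESeq2 called HSPA5 and HSPA8 for each form, among 2.15% of genes for F-78(WT) and 3.77% for the NLS Mut form. Without Vector replicate 1 the same edgeR test called these 3 members too, but 1.95% of all genes with them, and in F-78(WT) against Vector it called HSPA5, HSPA8 and HSPA9, with 6.33% of all genes. In F-78(NLS Mut) against Vector it called the same pair, with 5.05% of all genes.

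The heat-inducible pair HSPA1A and HSPA1B was practically not counted. HSPA1A (ENSG00000204389.10, chr6:31815464-31817946, plus strand, a single exon) had 7 reads in Vector replicate 1 and 0 in the other 8 libraries. HSPA1B (ENSG00000204388.7, chr6:31827735-31830255, plus strand, a single exon) had 1 read in F-78(WT) replicate 3 and 0 elsewhere. Their sum of 8 reads over 9 libraries did not pass the filter, so neither could be tested, and HSPA1L, the third gene of the cluster, had 2 reads.

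The zeros of HSPA1A and HSPA1B cannot be read as silence of these genes. The coding sequences of the pair are 99.8% identical, and 69.9% of the windows of 100 bases in the HSPA1A transcript also occur in HSPA1B. A read from either thus often has more than 1 place, and such reads are left out of the unique counts of STAR. The other windows of HSPA1A occur in no transcript of another gene, and the part of shared sequence in the zeros was not tested. In the surrounding region, zeros were also frequent, counted without regard to whether a gene has a near-identical copy. Of 97 protein-coding genes that start within 1000000 bases of HSPA1A, 39 (40.2%) were at 0 in all libraries, against 128 of 798 (16%) farther than 4000000 bases away on chromosome 6. DDX39B and CSNK2B, which nearly all cells use and which were named after their values were seen, are listed at 0, while their neighbours CLIC1 and VARS have 61490 and 46344 reads. HSPA1A and HSPA1B are thus listed at or near 0, and their levels are not given further.

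HSPA4 and HSPA4L belong to the HSP110 branch of the superfamily, whose proteins act mainly as nucleotide exchange factors for HSPA8 and its relatives. For HSPA4 (ENSG00000170606.16, chr5:133051962-133106449, plus strand, 20 exon blocks) the libraries gave 280, 267 and 263 CPM in Vector, 289, 295 and 301 in F-78(WT), and 288, 309 and 294 in F-78(NLS Mut). Both F-78 groups were above all Vector libraries and overlapped each other. The log2 difference from Vector was 0.13 ± 0.05 (adjusted p = 0.34) for F-78(WT) and 0.14 ± 0.05 (adjusted p = 0.27) for F-78(NLS Mut), neither called. The difference between the forms was -0.01, with a 95% interval of -0.12 to 0.10.

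HSPA4L, its close relative with 66.9% identity in the coding sequence (ENSG00000164070.12, chr4:127781821-127840733, plus strand), was at a lower level. Vector libraries held 26.7, 23.6 and 24.7 CPM, F-78(WT) libraries 31.9, 30.9 and 22.5 CPM, and F-78(NLS Mut) libraries 32.4, 30.6 and 30.6 CPM. F-78(NLS Mut) was above Vector in every library, whereas F-78(WT) replicate 3 was below all Vector libraries. The difference from Vector was 0.32 ± 0.11 (95% interval 0.09 to 0.55, adjusted p = 0.21) for F-78(NLS Mut) and 0.19 ± 0.11 (adjusted p = 0.55) for F-78(WT). Antisense genes overlap 6.19% of its exonic length, and the counts used were not split by strand.

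HSPA2 and HSPA14 are the remaining cytosolic members, HSPA2 being known for its role in spermatogenesis and HSPA14 as part of the ribosome-associated complex. HSPA2 (ENSG00000126803.10, chr14:64535905-64546173, plus strand) was at 18.7, 21.3 and 23.3 CPM in Vector, 22.0, 19.8 and 19.1 in F-78(WT), and 26.3, 23.3 and 25.8 in F-78(NLS Mut). Its F-78(NLS Mut) libraries were above all others, the lowest of them only just above Vector replicate 3. The log2 difference was 0.25 ± 0.11 (adjusted p = 0.37) between F-78(NLS Mut) and Vector, and between the forms -0.31 ± 0.11 (95% interval -0.54 to -0.07, adjusted p = 0.26, F-78(WT) being lower), neither called.

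HSPA14 (ENSG00000187522.16, chr10:14838164-14871741, plus strand) was at 19.6, 22.2 and 21.6 CPM in Vector, 19.8, 20.7 and 16.7 in F-78(WT), and 418, 631 and 423 reads, or 21.9 to 24.7 CPM, in F-78(NLS Mut). F-78(NLS Mut) was above F-78(WT) in every library and overlapped Vector. Between the forms the difference was -0.30 ± 0.11 (95% interval -0.54 to -0.07, adjusted p = 0.27). Genes that overlap HSPA14 cover 17.4% of its exonic length. Among them is an identifier that GENCODE 29 also names HSPA14, but that the symbols used for the counts name MSANTD7. It was at 24.5 to 25.8 CPM on average per group. Reads in the shared exons are not assigned to either, so the level of HSPA14 is uncertain.

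Neither of the remaining organelle members was called by edgeR. HSPA9, the mitochondrial form that pulls proteins through the inner membrane (ENSG00000113013.16, chr5:138553756-138575724, minus strand), had 607, 622 and 631 CPM in Vector, 588, 552 and 568 in F-78(WT), and 648, 663 and 636 in F-78(NLS Mut). Its 3 groups did not overlap, with F-78(WT) lowest and F-78(NLS Mut) highest. The difference was -0.12 ± 0.05 (adjusted p = 0.29) for F-78(WT) against Vector and -0.19 ± 0.05 (-12.3%, 95% interval -18.1% to -6.10%, adjusted p = 0.061) between the forms, F-78(WT) being lower. DESeq2 called the second (adjusted p = 0.0022), and without Vector replicate 1 edgeR called both, at -0.14 (adjusted p = 0.044) and -0.18 (adjusted p = 0.0058). Both were also called with GC and length correction, with or without the replicate block. Of 19 alternatives, 3 called the first and 6 the second.

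HSPA13, a microsomal member that consists of little more than the ATPase domain (ENSG00000155304.6, chr21:14371115-14383484, minus strand), was at 108, 84.1 and 87.3 CPM in Vector, 90.5, 86.9 and 90.1 in F-78(WT), and 100.5, 98.9 and 87.2 in F-78(NLS Mut). Vector replicate 1 was the highest of all 9 libraries and the groups overlapped in each comparison. The log2 differences were -0.06 ± 0.08, 0.04 ± 0.08 and -0.10 ± 0.08 for F-78(WT) against Vector, F-78(NLS Mut) against Vector and the 2 forms, with adjusted p-values of 0.84, 0.91 and 0.70. Without Vector replicate 1 the first of them was 0.06.

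**Figure D3:**
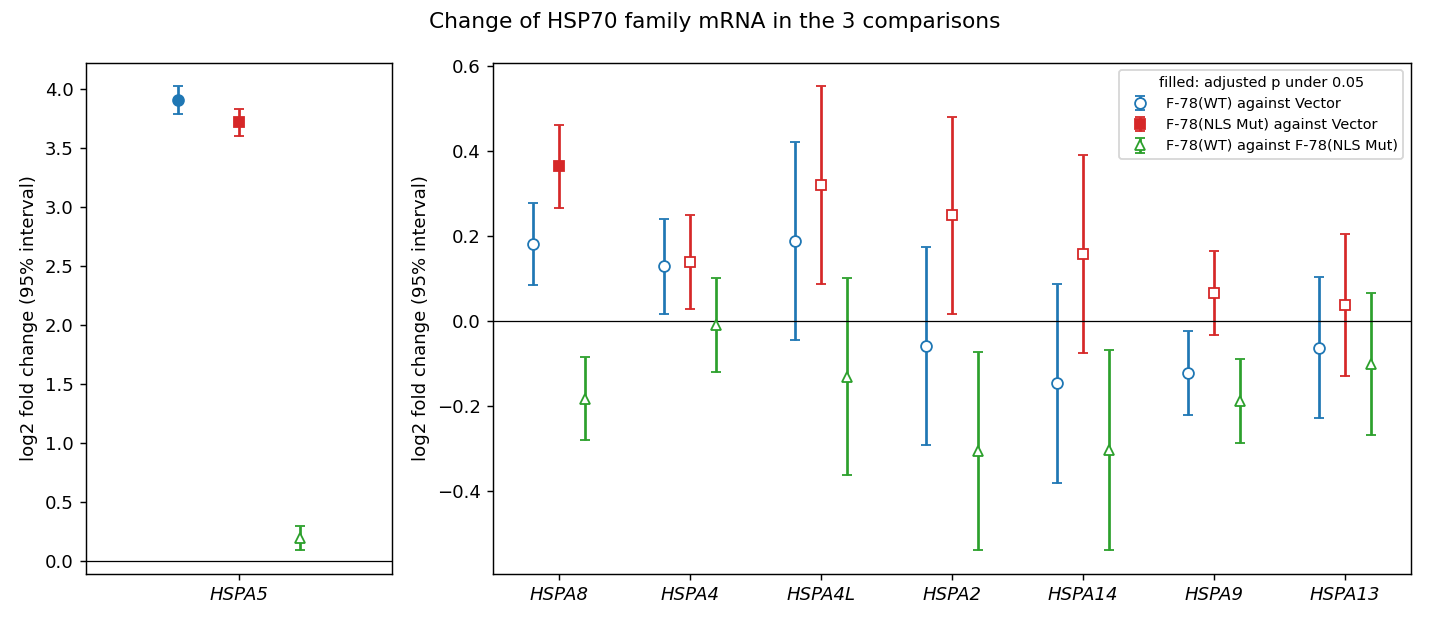
Log2 fold change with its 95% interval for the 8 tested HSP70 family members in the 3 comparisons, HSPA5 on its own axis at the left and filled symbols where the adjusted p was under 0.05 (edgeR, n = 3 libraries a group). HSPA5 is filled against Vector for both forms at 3.91 and 3.71, HSPA8 is filled for F-78(NLS Mut) against Vector at 0.36, and no symbol is filled for the 2 forms (green, positive where F-78(WT) is higher).

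Between the 2 forms (F-78(WT) minus F-78(NLS Mut), log2) the tested members other than HSPA5 were all below 0, from -0.01 for HSPA4 to -0.31 for HSPA2, where 48.9% of all tested genes were above 0. HSPA4 was above 0 without F-78(WT) replicate 1 (0.01) or F-78(NLS Mut) replicate 2 (0.02), and HSPA4L without F-78(WT) replicate 3 (0.02). The values with an unadjusted p under 0.05 were those of HSPA5, HSPA8, HSPA9, HSPA2 and HSPA14. By p-value these were numbers 202, 172, 151, 858 and 922 of the 18653 tested genes. F-78(WT) was below F-78(NLS Mut) in every library for HSPA2, HSPA8, HSPA9 and HSPA14, as for 9.42% of all tested genes. F-78(NLS Mut) was above Vector in every library for HSPA2, HSPA4, HSPA4L, HSPA8 and HSPA9 as well as HSPA5, as for 9.28% of all tested genes, and F-78(WT) was above Vector in every library for HSPA5, HSPA4 and HSPA8, as for 6.53%. For HSPA9 it was below in every library, as for 6.54%. No member was lower in every F-78(NLS Mut) library than in Vector, as 8.82% of tested genes were, or higher in every F-78(WT) library than in the other form, as 8.25% were. Counted by sign, all 8 tested members were above 0 in F-78(NLS Mut) against Vector, HSPA13 not so with GC and length correction (-0.082) or without Vector replicate 2 (-0.036) or 3 (-0.014) or F-78(NLS Mut) replicate 1 (-0.0046), where 49.7% of tested genes were, and 4 of 8 were in F-78(WT) against Vector, where 49.5% were. Both comparisons with Vector share the Vector libraries.

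Per kilobase of exons, which allows levels of different genes to be compared, the order in Vector was HSPA8 at 229 CPM per kb, HSPA5 at 96.7, HSPA9 at 75.1, HSPA4 at 52.4, HSPA13 at 22.2, HSPA14 at 7.99, HSPA2 at 3.65 and HSPA4L at 2.15. No neighbours in this order overlapped between their 3 libraries, in any of the groups. With the F-78 plasmids HSPA5 took the first place, 5.59 times above HSPA8 in F-78(WT) and 4.31 times in F-78(NLS Mut), and the order of the other 7 was the same in all 3 groups. These values depend on the length used. With the length of the principal transcript, an alternative chosen after seeing the data, HSPA8 was at 450.4 CPM per kb in Vector, HSPA9 was at 131 and above HSPA5 at 96.7, and HSPA5 was 2.84 times above HSPA8 in F-78(WT) and 2.19 times in F-78(NLS Mut). With either length HSPA5 was divided by 3908 bases in all groups, while its coding sequence is 1962 bases. The F-78 construct lacks the 3′UTR region that si78 targets. The level of HSPA5 per kilobase is thus likely understated with F-78 but not in Vector, and by how much was not tested.

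Summed over the family, the level per kilobase was 489 ± 9.32 CPM per kb (SD, n = 3) for Vector, 1869 ± 142 for F-78(WT) and 1739 ± 60.2 for F-78(NLS Mut). HSPA5 made up 19.8% ± 0.681 of this sum in Vector, 77.4% ± 2.00 in F-78(WT) and 73.0% ± 0.916 with the NLS Mut form. With the principal transcript length these shares were 12.5% ± 0.429, 66.4% ± 2.55 and 60.7% ± 1.21. Family sums and HSPA5 shares with F-78 rest on the full length of HSPA5 and are likely understated in the same way. The sum of the other 9 was 392 ± 6.88, 420 ± 4.31 and 469 ± 19.7 CPM per kb in the same order, without overlap between the groups, and 678 ± 16.0, 731 ± 8.08 and 822 ± 37.4 with the principal transcript length, also without overlap. HSPA8 alone accounted for 58.3% ± 1.32 of that remainder in Vector, 61.7% ± 0.154 in F-78(WT) and 62.7% ± 1.33 with the NLS Mut form.

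**Figure D4:**
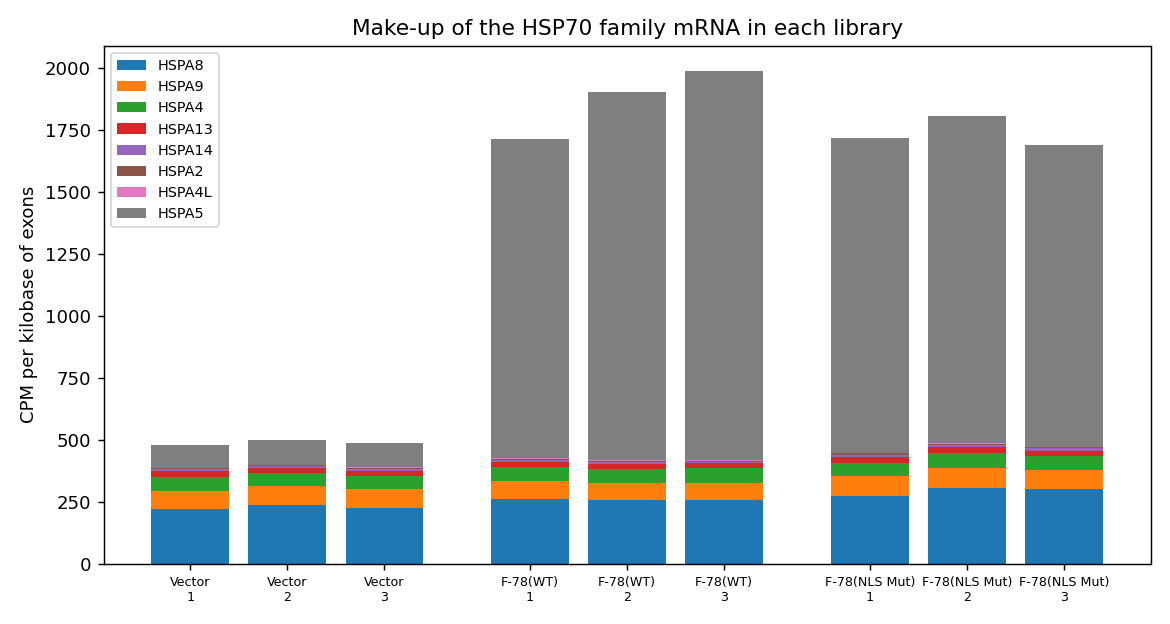
Level of each counted HSP70 family member in CPM per kilobase of exons, stacked for each of the 9 libraries. The part of HSPA5 grows from 19.8% of the family sum in Vector to 77.4% in F-78(WT) and 73.0% with the NLS Mut form, while the stack of the others goes from 392 over 420 to 469 CPM per kb. HSPA5 is divided by its full length of 3908 bases in all libraries, although the F-78 construct lacks the 3′UTR region that si78 targets.

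Genes that work with HSP70 proteins were grouped into lists by compartment. The list of ER partners of HSPA5 (21 tested) held J-domain proteins, exchange factors, lumenal chaperones and others, HERPUD1 of ER-associated degradation among them. It included genes called lower in both comparisons with Vector. In F-78(WT) 3 were called lower, as were 0.343% of all tested genes, and none higher, with a median log2 difference of -0.15 and 19 of 21 below 0, and in F-78(NLS Mut) 6 were called lower, as were 0.499% of all tested genes, and none higher, with a median of -0.19 and 18 of 21 below 0. The median over all tested genes was -0.0023 and -0.0017. These counts depended on single libraries. For F-78(WT) no ER partner was called without Vector replicate 2 or 3 or F-78(WT) replicate 1 or 3, nor in the fit of only the 2 groups, and 1 was called without any 1 of the F-78(NLS Mut) libraries. For F-78(NLS Mut) 3 were called lower without Vector replicate 2 or 3 or F-78(NLS Mut) replicate 1 or 3, and 4 without F-78(NLS Mut) replicate 2. Without Vector replicate 1, 12 were called lower in F-78(WT) and 11 with the NLS Mut form, where the share of all genes called was 6.33% and 5.05%. PDIA4, a disulfide isomerase, was at 2699 ± 217 CPM in Vector and 2424 ± 88.4 in F-78(WT), and fell in F-78(NLS Mut) (-0.41 ± 0.05 on the log2 scale against Vector, adjusted p = 9.1e-06). HSP90B1 (GRP94), the HSP90 of the ER, was at 2437 ± 21.7 CPM in Vector and 2409 ± 91.3 in F-78(WT), and fell in F-78(NLS Mut) (-0.28 ± 0.04, adjusted p = 2.7e-04).

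HYOU1, an exchange factor of HSPA5 and itself a distant HSP70 relative, was at 918 ± 87.4 CPM in Vector, 784 ± 11.3 in F-78(WT) and 729 ± 20.8 with the NLS Mut form. Its log2 difference from Vector was -0.33 ± 0.05 (adjusted p = 0.0015) for F-78(NLS Mut) and -0.23 ± 0.05 (adjusted p = 0.0496) for F-78(WT). The second call was lost in 11 of 19 alternative analyses, among them those without any single library other than Vector replicate 1, where it was -0.18 (adjusted p = 0.44) at its weakest, without Vector replicate 2. HERPUD1, of ER-associated degradation, had the smallest adjusted p of the 3 called in F-78(WT) against Vector (-0.27 ± 0.05, adjusted p = 0.016), and lost its call without Vector replicate 2 or 3 or F-78(WT) replicate 1 or 3 (-0.23 to -0.26, adjusted p up to 0.15) and in the fit of only the 2 groups (adjusted p = 0.078). The last of the 3 was SDF2L1, named here after its value was seen, at 129 ± 31.9 CPM in Vector and 94.4 ± 3.52 in F-78(WT) (-0.46 ± 0.10, adjusted p = 0.038). Its call was lost in 11 of 19 alternatives: with DESeq2 (adjusted p = 0.19), in the fit of only the 2 groups, with GC and length correction (-0.20), with the replicate block added to that correction (-0.20), and without any single library other than Vector replicate 1 and F-78(WT) replicate 2 (-0.33 to -0.47, adjusted p up to 0.32). It was -0.65 without Vector replicate 1.

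The lectin chaperone CALR (-0.23 ± 0.05) and CRELD2 (-0.35 ± 0.07) were also called lower in F-78(NLS Mut) against Vector, each at an adjusted p of 0.018. CALR lost its call without Vector replicate 2 or 3 or F-78(NLS Mut) replicate 1 or 3 (-0.20 to -0.23, adjusted p up to 0.14), and CRELD2 also without F-78(NLS Mut) replicate 2 (-0.29 to -0.37, adjusted p up to 0.15). Between the forms, 2 ER partners were called, both higher with the wild-type form: HSP90B1 (0.27 ± 0.04, adjusted p = 5.7e-04) and PDIA4 (0.26 ± 0.05, adjusted p = 0.0057, lost without F-78(WT) replicate 3 at 0.24 and adjusted p = 0.059, and without F-78(NLS Mut) replicate 1 at 0.25 and adjusted p = 0.055). Of all tested genes, 0.3% were called higher in F-78(WT) in that comparison.

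For the cytosol, partners and heat shock factor targets were counted in the same way. Of 24 tested cytosolic partners (DNAJ, BAG and HSP90 genes and others), 1 was called higher and none lower in F-78(NLS Mut) against Vector, with a median of 0.11 and 20 of 24 above 0, and none was called in F-78(WT) against Vector, with a median of -0.03. Of 18 tested heat shock factor targets, 3 were called higher in F-78(NLS Mut) against Vector (median 0.13, 14 above 0) and none in F-78(WT) against Vector (median -0.03), and between the forms 2 were called lower in F-78(WT) (median -0.13). Of all tested genes, 0.295% were called higher and 49.7% were above 0 in F-78(NLS Mut) against Vector. Between the forms 0.204% were called lower in F-78(WT). The lists share 5 genes, HSP90AA1 among them. The edgeR test in F-78(WT) against Vector, with no call in either list, had 5 cytosolic partners and 2 heat shock factor targets at an unadjusted p under 0.05. The share of all tested genes under that p was not counted, but such values were frequent. HSPA4, at an unadjusted edgeR p of 0.025 there, was number 1377 of 18653 genes. In F-78(WT) against Vector 8 of the 19 alternatives, DESeq2 among them, called 1 in each list higher, HSP90AA1, with 1 heat shock factor target lower when Vector replicate 1 was left out. Without Vector replicate 1 the heat shock factor targets had 5 calls higher and 2 lower in F-78(NLS Mut) against Vector, with a median of 0.06, and the cytosolic partners 3 calls higher, with a median of 0.07.

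HSP90AA1, the inducible cytosolic HSP90 that receives clients from HSPA8, was the called cytosolic partner. It was at 1445 ± 28.5 CPM in Vector, 1638 ± 46.0 in F-78(WT) and 1879 ± 85.1 with the NLS Mut form, with log2 differences of 0.38 ± 0.04 (adjusted p = 9.1e-06) between F-78(NLS Mut) and Vector and of -0.20 ± 0.04 (adjusted p = 0.031) between the forms. Between F-78(WT) and Vector it was at 0.18 ± 0.04 (adjusted p = 0.051), just short of the threshold, and it passed with DESeq2 (adjusted p = 0.0034), with DESeq2 size factors, with no filter, with a filter of 1 CPM, with both strand columns, with the replicate block, and without Vector replicate 1 (0.18, adjusted p = 0.0023) or F-78(WT) replicate 2 (0.21, adjusted p = 0.019). The difference between the forms was not called without Vector replicate 2 or any 1 of the 6 F-78 libraries (-0.16 to -0.22, adjusted p up to 0.28). The HSP90 co-chaperone FKBP4 (0.30 ± 0.07, adjusted p = 0.026) and the co-chaperone p23, encoded by PTGES3 (0.25 ± 0.05, adjusted p = 0.016), were the other heat shock factor targets called higher in F-78(NLS Mut) against Vector. Both lost the call without Vector replicate 3 or any F-78(NLS Mut) library, and PTGES3 also without Vector replicate 2, with values of 0.28 to 0.32 for FKBP4 (adjusted p up to 0.21) and 0.22 to 0.27 for PTGES3 (adjusted p up to 0.15). FKBP4 was also not called with the sum of both strand columns (0.25, adjusted p = 0.076). Between the forms FKBP4 was called lower in F-78(WT) (-0.33 ± 0.07, adjusted p = 0.023), which was lost without F-78(WT) replicate 1 or 3 or any F-78(NLS Mut) library (-0.29 to -0.34, adjusted p up to 0.17) and with the sum of both strand columns (-0.29, adjusted p = 0.052).

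Among 14 tested mitochondrial partners of HSPA9 none was called by edgeR in any comparison, with medians of -0.09, 0.06 and -0.10 in F-78(WT) against Vector, in F-78(NLS Mut) against Vector and between the forms. At an unadjusted p under 0.05 there were 2, 3 and 4 of them, and DESeq2 called 0, 1 and 0. For the unadjusted counts here and below, the share of all tested genes was not counted, but such values were frequent. In F-78(NLS Mut) against Vector, HSPA2 at an unadjusted edgeR p of 0.037 was number 1850 of 18653 genes. Without Vector replicate 1 edgeR called 2 lower in F-78(WT) against Vector, and 1 higher and 1 lower in F-78(NLS Mut) against Vector, where the median was -0.0065. The 4 genes of the heat shock factors and their binding protein had no call by edgeR or DESeq2, with medians of 0.06, 0.05 and 0.01, and with 0, 2 and 0 at an unadjusted p under 0.05. Without Vector replicate 1, 1 of them was called lower in F-78(NLS Mut) against Vector. Of the other superfamily genes 5 of 7 were tested, and HYOU1 was the one called by edgeR. In F-78(NLS Mut) against Vector, DESeq2 and edgeR without Vector replicate 1 each called 1 of them higher as well as 1 lower.

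**Figure D5:**
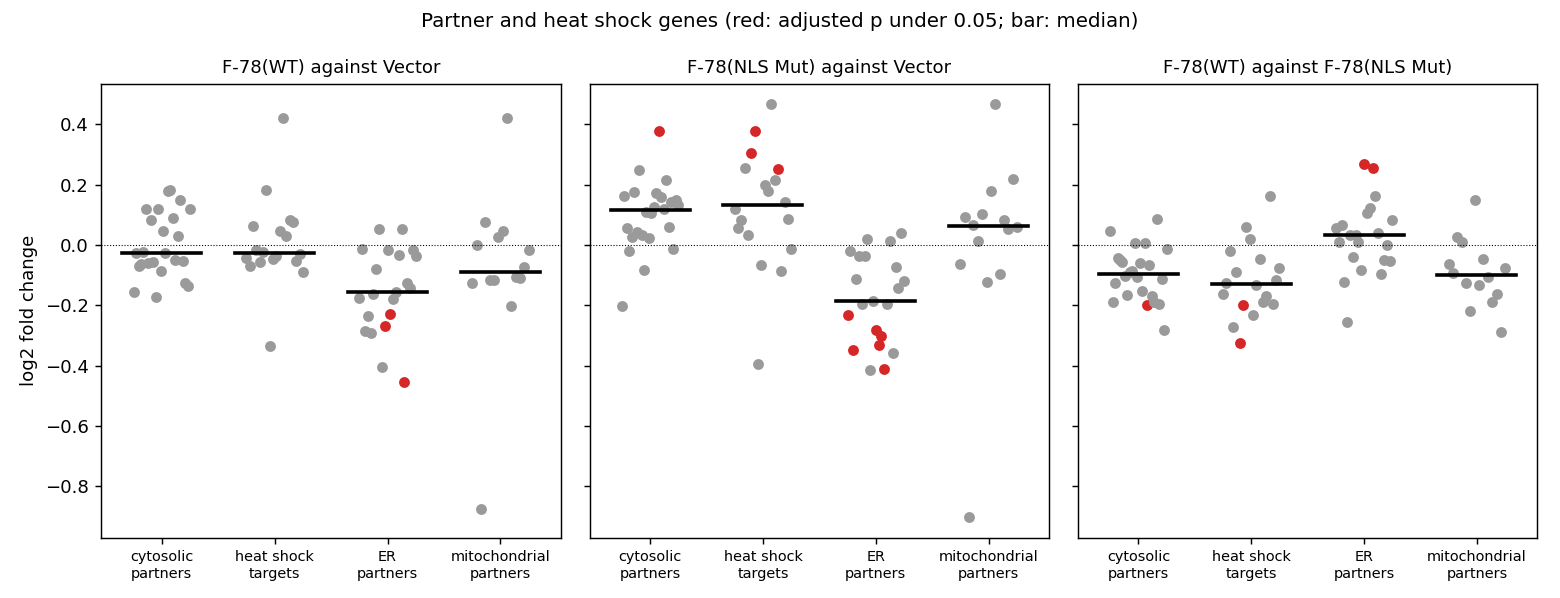
Log2 fold change of each tested partner gene by list in the 3 comparisons, 1 point a gene, red where the adjusted p was under 0.05 (edgeR), with a bar at the list median. The ER partners have medians of -0.15 and -0.19 against Vector, and the heat shock factor targets have a median of 0.13 in F-78(NLS Mut) against Vector with 3 red points above 0.

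Over the 9 libraries, the genes whose log2 CPM was most like that of HSPA8, among 10070 genes averaging 10 CPM or more, were MCM4 (Pearson's r = 0.979), HSP90AA1 (0.972) and SORD (0.971). For HSPA5 they were PAPSS1 (0.972), ASCC1 (0.970) and NCBP1 (0.955). These are the top of a ranking of many genes over 9 libraries that share their groups, and are given as a description.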

How the data were processed

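The authors sequenced mRNA of H1975 cells and deposited 1 STAR gene count table per library, with unstranded and stranded read counts per Ensembl gene. The submitters' processing notes name STAR 2.7.9a, DESeq2 1.36.0 and GRCh38.p14. Unstranded counts were used, since 50.6% to 51.9% of stranded reads fell on the forward strand. The summary lines, 27.6% to 30.7% of all reads, entered neither library sizes nor tests. Members, lists and comparisons were chosen with earlier results of these data known.

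Counts were fitted over all 9 libraries with edgeR 4.0.16 in R 4.3.3 (quasi-likelihood test, TMM, filterByExpr, Benjamini-Hochberg over 18653 genes, threshold 0.05, two-sided). SE is the log2 fold change over the root of F. CPM uses TMM library sizes. Exonic length, exons and positions are from GENCODE 29, in which 58342 of the 61544 identifiers were found, and 61536 had a symbol. The median biological coefficient of variation was 11.2%. In 3 simulations for F-78(WT) against Vector (18653 genes), counts were drawn from the fitted dispersions, with 200 changed genes above 1 CPM. There 62% of log2 changes of 0.5 and 83.3% of 1 were found, with 4.6% false calls. An exact permutation test of 3 against 3 libraries cannot go below p = 0.10, so none was used. Replicates of a group differed by more than counting noise (chi-square per degree of freedom 3.56 to 12.6). Promoter windows are from RefSeq (GRCh38.p14), and transcript windows of 50 and 100 bases were compared over GENCODE 29.

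From each list, genes called in any comparison were named, up to 6 by adjusted p. The 3 genes most like HSPA5 and HSPA8 were named by Pearson's r of log2 CPM. For HSPA1A this could not be done. Alternatives were DESeq2 1.42.0, other size factors, filters and strand columns, 2-group fits, a replicate block, GC and length correction (loess, span 0.3), each library left out, and the principal transcript's length.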

Additional observations from a re-analysis of the deposited data

How the results depend on the processing

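Of the calls of members, those of HSPA5 against Vector (both forms) and of HSPA8 in F-78(NLS Mut) against Vector were kept in all 19 alternatives. The number of members called in F-78(WT) against Vector went from 1 to 2 with DESeq2, the replicate block, GC and length correction, and the block with that correction, and ranged from 1 to 3 with a library left out. In F-78(NLS Mut) against Vector it was 2 throughout. Between the forms it went from 0 to 3 with DESeq2, the fit of only the 2 groups, the replicate block, GC and length correction, and both together, to 1 with no filter, and ranged from 0 to 3 with a library left out. In F-78(WT) against Vector the added call was HSPA8 with DESeq2 and with the block, and HSPA9 with GC and length correction, with or without the block. Both were added without Vector replicate 1. Between the forms the added calls were HSPA5, HSPA8 and HSPA9. HSPA5 was the only one with no filter, without Vector replicate 3 and without F-78(WT) replicate 1. All added calls were in their main direction, and the cause was not tested. The sum of both strand columns gave summed CPM of the members other than HSPA5 of 1888 against 2160 in Vector, 2003 against 2279 in F-78(WT) and 2226 against 2549 in F-78(NLS Mut). The unstranded reads of each member were 97.2% to 100% of its stranded sum. The lower CPM thus came with larger library sizes, not with fewer member reads.

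Directions that changed sign all belonged to uncalled values near 0. HSPA13 in F-78(NLS Mut) against Vector was -0.082 with GC and length correction and -0.083 with the replicate block added. With 1 library left out, it ranged from -0.036 (without Vector replicate 2) to 0.15, and was also below 0 without Vector replicate 3 (-0.014) and F-78(NLS Mut) replicate 1 (-0.0046). In F-78(WT) against Vector, HSPA2 ranged from -0.14 to 0.016 (without Vector replicate 3) and HSPA13 from -0.13 to 0.055 (without Vector replicate 1). Between the forms, HSPA4 ranged from -0.023 to 0.023 (without F-78(NLS Mut) replicate 2, and 0.010 without F-78(WT) replicate 1), and HSPA4L from -0.21 to 0.017 (without F-78(WT) replicate 3).

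Over all genes, the counts called (F-78(WT) against Vector, F-78(NLS Mut) against Vector, and between the forms) were 104, 148 and 94 with edgeR, 248, 408 and 288 with DESeq2, 289, 240 and 225 with no filter, 26, 151 and 315 in fits of 2 groups, 232, 230 and 212 with the block, 137, 216 and 390 with GC and length correction, 210, 242 and 438 with both, and 1256, 1002 and 388 without Vector replicate 1. With another library left out they ranged from 19 to 318, from 33 to 166 and from 27 to 136. Over all genes, same-numbered libraries did not deviate together (correlations of deviations from the group means of -0.0237 to 0.0588). Pairs with different numbers were not compared, and the counts called rose with the block. Whether the numbers pair the libraries is thus unknown. HSPA1A and HSPA1B, singly or summed, gave no test. Median log2 differences of the cytosolic partners and heat shock factor targets in F-78(WT) against Vector were 0.0091 and 0.00032 with GC and length correction, and that of the other superfamily genes in F-78(NLS Mut) against Vector was -0.0050 by library size alone. In the simulations, over random genes above 1 CPM at 3 libraries a group, changes of log2 0.5 were partly missed. That rate was not computed for the members, whose SE was 0.05 to 0.11.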

Other observations

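Promoter windows with the elements printed for HSPA5 and HSPA8 were also counted over all tested genes with a RefSeq window (12160 genes by symbol). The 3-unit heat shock element was in a window of 62 tested genes. In F-78(NLS Mut) against Vector 2 of them were called higher, HSP90AA1 and HSPA8, and none lower, with 59.7% above 0 and a median log2 difference of 0.02, where 51.2% of all tested genes with a window were above 0, 0.345% were called higher and 0.526% lower. In F-78(WT) against Vector edgeR called none, with a median of 0.04, and between the forms it called 1 lower in F-78(WT), HSP90AA1, with 41.9% above 0 and a median of -0.05, where 47.9% of genes with a window were above 0 and 0.222% were called lower. The ER stress response element was in a window of 16 tested genes. In F-78(NLS Mut) against Vector HSP90B1, CALR and CRELD2 were called lower and the transfected HSPA5 higher, with a median of -0.18 and 12.5% above 0, HSPA5 included. In F-78(WT) against Vector the transfected HSPA5 alone was called, with a median of -0.03 and 31.2% above 0. Of all tested genes with a window, 49.7% were above 0 there, 0.206% were called higher and 0.411% lower. Between the forms 93.8% were above 0, with a median of 0.07, and HSP90B1 was called higher in F-78(WT), where 0.329% of genes with a window were. These counts carry no test, and the called genes are ones already named by list.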
